A study of Mus musculus with 46 samples.

Results

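Bone marrow-derived macrophages (BMDM), cells grown from mouse bone marrow into macrophages in culture, were given 27HC while their liver X receptors (LXR) were held by the antagonist GSK2033. The 5 GSK2033 + 27HC libraries and the 5 GSK2033 libraries were chosen by their labels, 10 of the 46 bulk RNA libraries of the series, and compared over all genes. Both groups carry the antagonist, so the difference between them is what 27HC changed in its presence. The same question without antagonist was set beside it, as 5 27HC libraries against 6 Vehicle libraries, and under the estrogen receptor (ER) antagonist ICI, as 5 ICI + 27HC libraries against 5 ICI libraries. These 3 comparisons have no library in common. All 6 groups are BMDM that differ, as far as the labels say, in ligand alone. Doses, times of exposure, and the strain, sex and age of the mice are not in the labels. They also leave unsaid whether replicate libraries stem from different mice or dishes, and the p-values therefore reflect only how far these libraries scatter, part of which may be technical.

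27HC is 27-hydroxycholesterol, an oxysterol made from cholesterol that binds both LXR and ER. LXR are nuclear receptors that, once an oxysterol binds them, switch on genes of cholesterol export, lipoprotein handling and fatty acid synthesis. GSK2033 is a synthetic LXR ligand that keeps the receptors from doing so. Oxysterols also act through a second route that needs no LXR: they bind the INSIG proteins, which hold SCAP and the SREBP transcription factors in the endoplasmic reticulum, so that genes of cholesterol synthesis and uptake are read less. In macrophages LXR ligands are also known to restrain inflammatory and interferon-responsive genes.

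Sequence around the start sites of 4 genes of sterol synthesis and of the interferon response is shown because Hmgcs1 and all 28 interferon-responsive genes fell with 27HC under GSK2033, and these promoters hold the motif of the factor known for each. They are the 250 bases before the start site in RefSeq (GRCm38.p6), 5′ to 3′ on the gene's own strand. Capitals mark the motif, on either strand. Hmgcs1, an early enzyme of cholesterol synthesis (chr13:119690101-119690350, plus strand), holds the SREBP site TCACNCCAC, starting 137 bases before the start site.
Hmgcs1: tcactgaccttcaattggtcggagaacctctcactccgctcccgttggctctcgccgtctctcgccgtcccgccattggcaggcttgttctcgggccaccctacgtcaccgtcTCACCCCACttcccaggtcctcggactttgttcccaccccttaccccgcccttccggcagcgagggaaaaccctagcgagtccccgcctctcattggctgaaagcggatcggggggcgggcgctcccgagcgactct
In Ifit3b (chr19:34607707-34607956, plus strand), Oas3 (chr5:120777660-120777909, minus strand) and Rsad2 (chr12:26456453-26456702, minus strand), antiviral genes induced by interferon, capitals mark GAAA repeated after any 2 bases, the core of the interferon-stimulated response element (ISRE). The matches start 188 and 154 bases before the start site in Ifit3b, 75 in Oas3 and 120 in Rsad2.
Ifit3b: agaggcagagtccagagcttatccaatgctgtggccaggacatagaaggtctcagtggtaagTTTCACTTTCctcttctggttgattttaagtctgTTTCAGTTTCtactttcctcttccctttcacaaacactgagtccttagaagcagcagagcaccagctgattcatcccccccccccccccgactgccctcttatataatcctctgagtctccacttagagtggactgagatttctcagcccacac
Oas3: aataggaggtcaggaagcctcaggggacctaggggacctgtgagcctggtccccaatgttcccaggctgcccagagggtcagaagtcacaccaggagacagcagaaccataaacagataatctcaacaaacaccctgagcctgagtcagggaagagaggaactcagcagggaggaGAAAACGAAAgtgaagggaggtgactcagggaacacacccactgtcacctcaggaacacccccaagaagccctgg
Rsad2: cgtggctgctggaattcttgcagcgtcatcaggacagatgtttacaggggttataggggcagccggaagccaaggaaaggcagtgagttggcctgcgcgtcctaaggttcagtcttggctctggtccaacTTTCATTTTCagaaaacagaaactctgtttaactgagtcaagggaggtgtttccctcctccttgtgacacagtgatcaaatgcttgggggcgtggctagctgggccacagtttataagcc
Both strands were searched in the promoters of 27025 gene symbols. The ISRE core was found in 10 of the 21 interferon genes with a promoter entry (47.6%), namely Bst2, Cxcl10, Ifit1, Ifit3, Ifit3b, Isg15, Oas1a, Oas3, Rsad2 and Stat2, against 936 of all promoters (3.46%). The SREBP site was found in 1 of 25 matched genes of sterol sensing and cholesterol synthesis, Hmgcs1, against 331 of all promoters (1.22%). TGATGNAAT, the composite element read by ATF4, was found in Nupr1 alone among 23 matched genes of the ATF4 list, against 246 of all promoters (0.91%). The LXR element of AGGTCA repeated after any 4 bases was found in 0 of 18 matched LXR target genes and 4 of all promoters (0.0148%). These matches describe letters in a window of 250 bases and are no evidence of binding.

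The libraries held 21598974 to 26567785 estimated counts with GSK2033 + 27HC and 19895062 to 25282583 with GSK2033. Levels are CPM, counts scaled to 1000000 per library with TMM factors, and are compared between samples, not between genes. After a mean level ± gives the SD (n = 5 libraries, 6 for Vehicle), and after a log2 fold change or difference the standard error. Each adjusted p comes from the quasi-likelihood test of edgeR after Benjamini-Hochberg adjustment across 13838 genes, with a threshold of 0.05. All 10 markers of macrophages were expressed, with a summed level of 16953 to 18495 CPM with GSK2033 + 27HC and 20611 to 21883 CPM with GSK2033. Of the 10, 7 fell, beside 18.8% of all genes. Markers of neutrophils (11 genes, 2 of them high enough to test) summed to 31.4 to 39.6 CPM with GSK2033 + 27HC and 56.1 to 65.0 CPM with GSK2033, with Elane, Ly6g and Retnlg at 0 in all 10 libraries. Of the 2 tested, Csf3r fell and the other did not pass. Markers of lymphocytes (12 genes, 5 tested) summed to 13.8 to 16.7 CPM with GSK2033 + 27HC and 24.9 to 28.8 CPM with GSK2033, and 3 of the 5 tested fell. Those of dendritic cells (10 genes, 5 tested) summed to 83.1 to 93.8 CPM with GSK2033 + 27HC and 76.9 to 80.3 CPM with GSK2033, and 1 of the 5 tested rose. Stromal markers (10 genes, 9 tested) overlapped in sum, at 3772 to 4072 CPM with GSK2033 + 27HC and 3691 to 4555 CPM with GSK2033, and so did those of mast cells and basophils, osteoclasts and erythroid cells, the last under 1 CPM in sum. Single genes did pass: 3 of 9 stromal genes fell, 2 of 6 osteoclast genes fell and 1 rose, and 1 of 3 mast cell and basophil genes rose. Over all genes 18.8% fell and 17.1% rose. The shares that rose for dendritic cells and osteoclasts are near that of all genes. In bulk RNA, fewer cells of a type and less RNA per cell cannot be told apart, and the part of these markers in the results below was not tested. The libraries' mitochondrially encoded transcripts took 1.34% ± 0.114 of the counts with GSK2033 + 27HC and 1.37% ± 0.0963 with GSK2033 (SD, n = 5 each). For 5 other libraries the labels disagree on the second compound given with GW3965, and they entered the fit only through its estimate of spread.

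With LXR antagonised, 27HC still changed 4958 of 13838 genes (35.8% called): 2361 rose (17.1%) and 2597 fell (18.8%). The libraries of the groups did not overlap for 3574 genes (25.8%). The median log2 fold change over all genes was 0.01. Changes of at least 2-fold lay mostly on the side of loss, with 264 genes that fell that far and 74 that rose. Among these 264 genes, 213 also fell with 27HC alone, 185 of them at least 2-fold, and 221 fell with 27HC under ICI. Of the 74 genes that rose at least 2-fold, 30 also rose with 27HC alone, 21 of them at least 2-fold, and 34 rose under ICI. Over all genes 20.3% rose with 27HC alone, 127 genes at least 2-fold, and 19.7% rose under ICI. Only 33 genes rose at least 2-fold under GSK2033 when genes with a mean under 1 CPM over all libraries were left out.

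**Figure D1:**
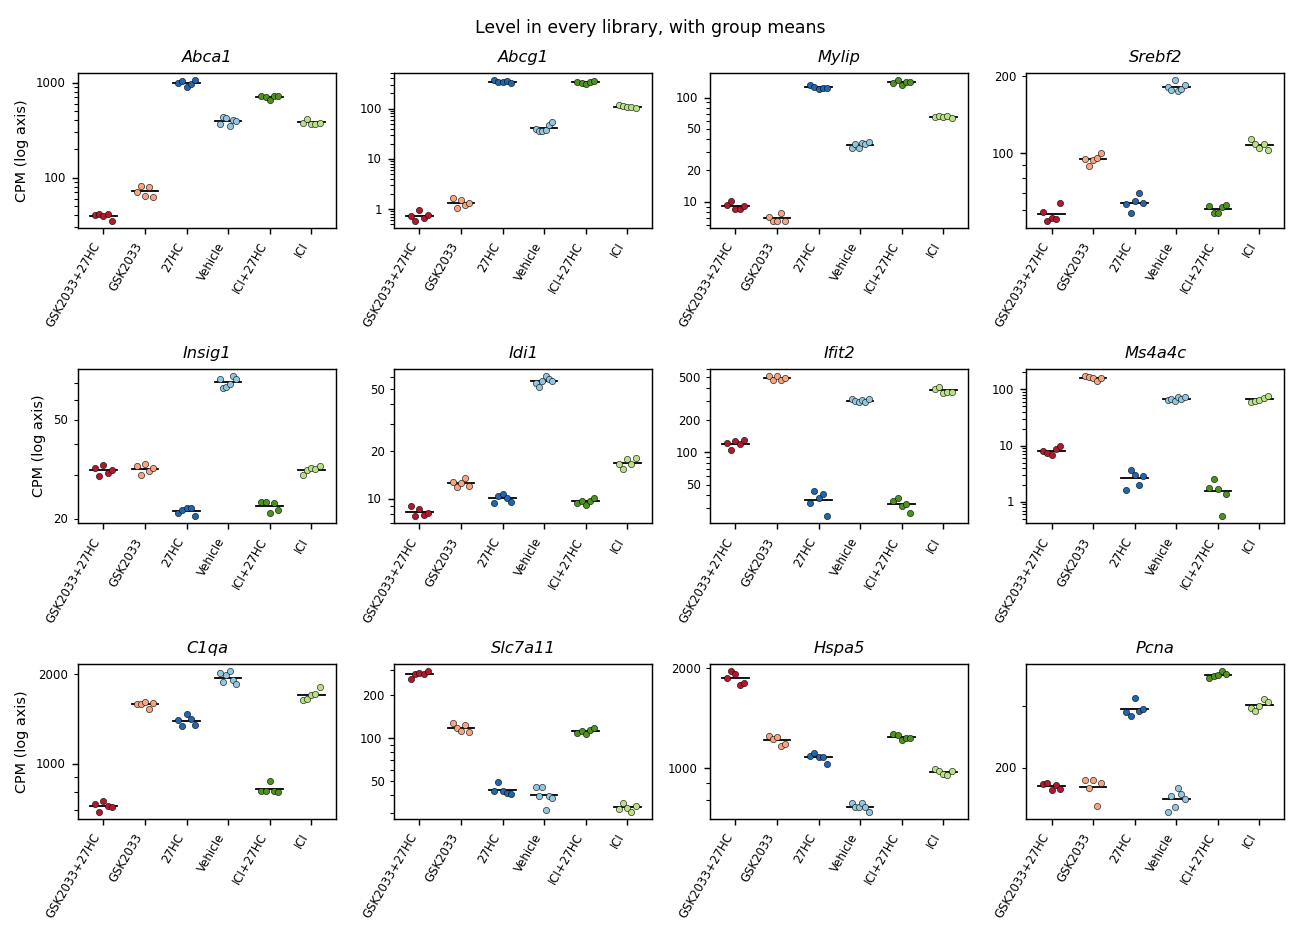
CPM on a log axis in every library of 6 groups for 12 genes, with a bar at each group mean. Abca1, Abcg1 and Mylip stand far lower in both groups with GSK2033 than in the others, while Ifit2, Ms4a4c, C1qa, Srebf2 and Idi1 are lower in the GSK2033 + 27HC libraries than in the GSK2033 libraries with no overlap.

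Of the 7 LXR targets of cholesterol export and lipoprotein handling, 0 rose with 27HC under GSK2033 and 4 fell, with a list median of -0.28. Without antagonist 5 rose and 0 fell, with a median of 0.64. The difference between these responses passed its own test, the lower way, for 4 of the 7. All 7 had a lower mean with GSK2033 than with Vehicle. That comparison shares the GSK2033 libraries, so levels are only set side by side here.

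Abca1 (ENSMUSG00000015243, chr4:53030787-53159895, minus strand) encodes the transporter that loads cholesterol onto apolipoproteins. It had 39.9, 41.7, 38.9, 41.1 and 34.9 CPM with GSK2033 + 27HC, against 71.03, 80.6, 63.1, 79.6 and 61.99 CPM with GSK2033. The first group lay below the second with no overlap, 1.81-fold lower (log2 -0.86 ± 0.075, adjusted p = 5.45e-13). With 27HC alone it rose to 988 ± 63.96 CPM, against 394 ± 32.7 CPM with Vehicle (log2 1.33 ± 0.063), so that the responses had opposite signs (log2 difference -2.19 ± 0.098, adjusted p = 1.17e-21). Under ICI it also rose (log2 0.90 ± 0.066).

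Abcg1 (ENSMUSG00000024030, chr17:31057675-31117988, plus strand), which moves cholesterol to lipoprotein particles, had 0.715, 0.583, 0.966, 0.657 and 0.765 CPM with GSK2033 + 27HC, against 1.66, 1.07, 1.49, 1.18 and 1.31 CPM with GSK2033. These are levels near 1 CPM, where 27HC alone gave 342 ± 15.7 CPM and Vehicle 41.2 ± 7.25 CPM. The fall under GSK2033 (log2 -0.87 ± 0.28, adjusted p = 0.012) did not pass with limma voom (adjusted p = 0.11), while the difference from the rise with 27HC alone did with every tool run (log2 difference -3.92 ± 0.29, adjusted p = 2.69e-14). Pltp, a phospholipid transfer protein gene, fell (log2 -0.34 ± 0.035, adjusted p = 4.54e-11), as did Lpl, lipoprotein lipase (log2 -0.28 ± 0.048, adjusted p = 6.59e-06), and both rose with 27HC alone (log2 0.30 and 1.14). Apoe, the apolipoprotein of cholesterol-laden macrophages, averaged 4389 ± 308 CPM with GSK2033 + 27HC and 4143 ± 259.7 CPM with GSK2033 (log2 0.08 ± 0.057, adjusted p = 0.27).

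Among 17 other LXR targets tested, 4 rose and 7 fell under GSK2033 (median -0.04), where 10 rose and 5 fell with 27HC alone (median 0.19). The difference was lower for 11 and higher for 2, beside 10.3% and 9.34% of all genes. Under GSK2033 17.1% of all genes rose and 18.8% fell. The shares of the 17 that rose under GSK2033, and that had a higher difference, are near those of all genes. Mylip (ENSMUSG00000038175, chr13:45389742-45412022, plus strand), which encodes the ubiquitin ligase IDOL, had 9.299, 10.1, 8.53, 8.54 and 9.04 CPM with GSK2033 + 27HC and 7.07, 6.59, 6.55, 7.77 and 6.58 CPM with GSK2033. Each of the first 5 lay above each of the others, and the rise was 1.32-fold (log2 0.40 ± 0.055, adjusted p = 8.40e-08). It was 3.57-fold with 27HC alone, at 125 ± 3.58 CPM with 27HC and 35.2 ± 1.86 CPM with Vehicle (log2 difference -1.44 ± 0.066, adjusted p = 8.10e-22).

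Plin2, a lipid droplet coat gene, Tmem135 and Rnf145 were the other 3 that rose, by log2 0.18, 0.19 and 0.20, and were picked out after their values were seen. Scd2, a fatty acid desaturase gene, fell under GSK2033 (log2 -0.50 ± 0.058, adjusted p = 9.31e-10) at 11.9 ± 0.921 CPM with GSK2033 + 27HC against 16.9 ± 1.44 CPM with GSK2033, and rose with 27HC alone (log2 1.61). Arl4c, a small GTPase gene, stood at 94.2 ± 1.22 CPM with GSK2033 + 27HC and 95.3 ± 1.54 CPM with GSK2033, a difference of -0.02 (95% interval -0.06 to 0.03), where it rose by log2 0.76 with 27HC alone. Srebf1, the regulator of fatty acid synthesis, had 50.9, 49.8, 52.5, 50.8 and 63.8 CPM with GSK2033 + 27HC and 49.3, 49.8, 50.02, 51.9 and 51.04 CPM with GSK2033, a difference that did not pass (log2 0.09 ± 0.053, adjusted p = 0.21); the fifth GSK2033 + 27HC library lay apart from the other 4.

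The receptor genes themselves were measured. Nr1h3, LXR alpha (ENSMUSG00000002108, chr2:91184061-91202834, minus strand), had 51.2, 50.5, 49.8, 50.6 and 48.5 CPM with GSK2033 + 27HC, against 115, 115, 117, 114 and 119 CPM with GSK2033. It fell 2.31-fold (log2 -1.21 ± 0.062, adjusted p = 7.53e-21) with no overlap, and by less with 27HC alone (log2 -0.61, difference -0.60 ± 0.086, adjusted p = 5.55e-07). Nr1h2, LXR beta, averaged 82.9 ± 3.53 CPM with GSK2033 + 27HC and 87.9 ± 5.27 CPM with GSK2033. That difference did not pass (log2 -0.08 ± 0.038, adjusted p = 0.079), but did without GSK2033 replicate 2 (log2 -0.12, adjusted p = 0.012). Esr1, ER alpha, fell (log2 -0.35 ± 0.11, adjusted p = 0.0072) at 5.07 ± 0.681 CPM with GSK2033 + 27HC against 6.49 ± 1.05 CPM with GSK2033.

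Of 10 genes of sterol sensing and SREBP control, 4 fell and 0 rose under GSK2033 (median -0.01), against 6 that fell and 1 that rose with 27HC alone (median -0.48), and the difference was higher for 5 and lower for 0. Under ICI 5 fell and 1 rose (median -0.30), and the difference between the responses under GSK2033 and ICI was higher for 3 and lower for 0. Mean levels were lower with GSK2033 than with Vehicle for 9 of the 10. Over all genes 18.8% fell with 27HC under GSK2033 and 17.1% rose.

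Insig1 (ENSMUSG00000045294, chr5:28071363-28078662, plus strand), a sterol sensor and itself an SREBP target, did not move under GSK2033 beyond its spread. It had 32.1, 29.7, 32.8, 30.5 and 31.5 CPM with GSK2033 + 27HC and 32.6, 29.99, 33.2, 31.2 and 32.05 CPM with GSK2033, groups that overlap throughout (log2 -0.02 ± 0.037, adjusted p = 0.67; 95% interval -0.10 to 0.05). With 27HC alone it fell (log2 -1.71), at 21.5 ± 0.739 CPM with 27HC and 70.6 ± 3.204 CPM with Vehicle (difference 1.69 ± 0.051, adjusted p = 3.25e-28). Srebf2, the SREBP of cholesterol synthesis, still fell, at 58.8, 54.1, 55.5, 55.1 and 63.8 CPM with GSK2033 + 27HC against 94.6, 89.02, 93.8, 95.4 and 99.7 CPM with GSK2033. Its log2 fold change was -0.72 ± 0.043, adjusted p = 1.13e-18 under GSK2033 and -1.51 ± 0.041 with 27HC alone. Stard4, a cholesterol carrier, fell to 6.93 ± 0.423 CPM with GSK2033 + 27HC, against 12.5 ± 0.632 CPM with GSK2033 (log2 -0.84 ± 0.063, adjusted p = 3.29e-15), and Nsdhl, which encodes a sterol dehydrogenase, fell too (log2 -0.31 ± 0.071, adjusted p = 4.42e-04).

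**Figure D2:**
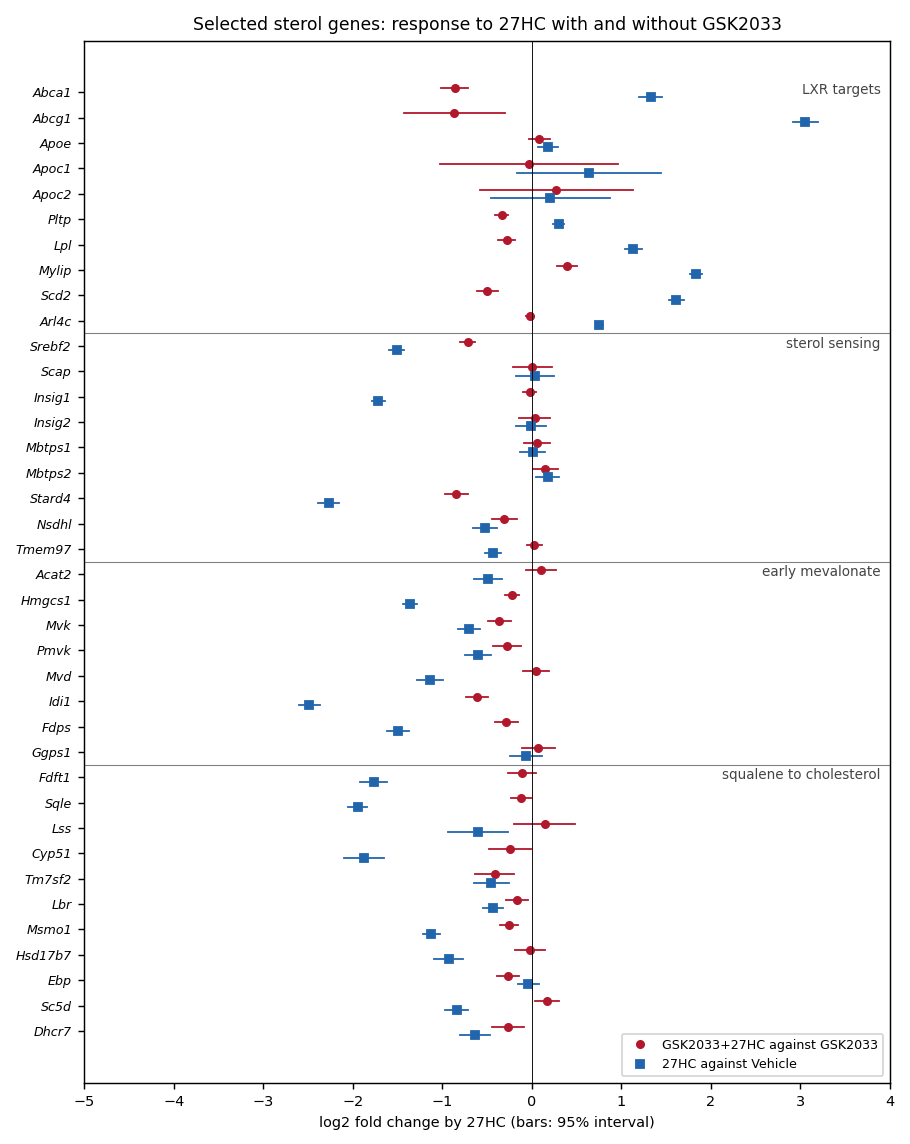
Log2 fold change with 95% interval of LXR targets of cholesterol export, Mylip, Scd2 and Arl4c, and of genes of sterol sensing and cholesterol synthesis, red for GSK2033 + 27HC against GSK2033 and blue for 27HC against Vehicle. The blue points lie right of 0 for the LXR targets and left of 0 for most cholesterol genes, while most red points lie nearer 0, with Abcg1 at -0.87 and Stard4 at -0.84 well below it.

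Of the 9 early enzymes of the mevalonate pathway, which makes the isoprenoid units of cholesterol, 5 fell and 1 rose under GSK2033 (median -0.22). With 27HC alone 8 fell and 0 rose (median -0.74), and the difference was higher for 8 of the 9. Under ICI 5 fell and 2 rose (median -0.21), close to the response under GSK2033. The difference between the responses under GSK2033 and ICI passed for 0 of the 9. Mean levels were lower with GSK2033 than with Vehicle for 8 of the 9. Over all genes 18.8% fell with 27HC under GSK2033 and 17.1% rose. Hmgcs1, whose promoter is printed above (ENSMUSG00000093930, chr13:119690379-119708260, plus strand), had 32.4, 35.4, 32.1, 30.2 and 30.5 CPM with GSK2033 + 27HC and 38.9, 37.5, 36.8, 37.8 and 36.3 CPM with GSK2033. The groups did not overlap (log2 -0.22 ± 0.040, adjusted p = 1.61e-05), and the fall with 27HC alone was larger (log2 -1.36, difference 1.14 ± 0.056, adjusted p = 8.63e-21).

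Idi1, an isomerase of the same pathway, had 9.004, 7.695, 8.57, 7.85 and 8.097 CPM with GSK2033 + 27HC, against 12.8, 11.9, 12.6, 13.5 and 12.01 CPM with GSK2033. It fell 1.53-fold (log2 -0.61 ± 0.062, adjusted p = 3.22e-11) and 5.603-fold with 27HC alone (difference 1.88 ± 0.083, adjusted p = 3.08e-22). The kinases Mvk and Pmvk and the synthase Fdps also fell (log2 -0.36, -0.28 and -0.28).

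The 13 enzymes that carry squalene on to cholesterol gave 7 that fell and 1 that rose under GSK2033 (median -0.25), against 12 that fell and 0 that rose with 27HC alone (median -0.84). The difference was higher for 10 and lower for 1. Under ICI 12 fell and 0 rose (median -0.30). The difference between the responses under GSK2033 and ICI was higher for 2 of the 13 and lower for 0. All 13 had a lower mean with GSK2033 than with Vehicle. Over all genes 18.8% fell with 27HC under GSK2033 and 17.1% rose. Msmo1, a sterol oxidase gene, fell under GSK2033 (log2 -0.25 ± 0.051, adjusted p = 6.77e-05).

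Sqle, squalene epoxidase, had 13.3, 13.7, 17.4, 14.3 and 15.1 CPM with GSK2033 + 27HC and 15.99, 16.2, 16.3, 16.5 and 15.1 CPM with GSK2033. The third GSK2033 + 27HC library was the highest of all 10, and the difference did not pass (log2 -0.12 ± 0.055, adjusted p = 0.084); without that library it did (log2 -0.18, adjusted p = 0.0074). With 27HC alone Sqle fell (log2 -1.95; difference 1.82 ± 0.076, adjusted p = 2.75e-23). Fdft1, which makes squalene, differed by -0.11 (95% interval -0.27 to 0.05) under GSK2033 and fell alone (log2 -1.77). Sc5d, a desaturase, was the 1 that rose (log2 0.17 ± 0.064, adjusted p = 0.036); its call was lost without GSK2033 replicate 2 or 4, or GSK2033 + 27HC replicate 2 or 3, with a largest adjusted p of 0.19.

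Of 15 genes of fatty acid synthesis and desaturation, 4 rose and 3 fell (median 0.01), beside 17.1% and 18.8% of all genes, so that the share that fell is near that of all genes. With 27HC alone 7 rose and 5 fell. Fasn, fatty acid synthase, averaged 43.2 ± 5.02 CPM with GSK2033 + 27HC and 30.3 ± 3.22 CPM with GSK2033 (log2 0.51 ± 0.12, adjusted p = 3.65e-04), and its rise with 27HC alone was of like size (log2 0.42 ± 0.10). Acaca, which makes its substrate, rose (log2 0.37 ± 0.083, adjusted p = 3.20e-04). Mid1ip1, which promotes that enzyme's polymers, had 27.1, 24.9, 23.9, 24.98 and 24.2 CPM with GSK2033 + 27HC against 17.7, 18.3, 17.2, 13.9 and 17.3 CPM with GSK2033, all higher in the first group (log2 0.56 ± 0.061, adjusted p = 1.77e-10). The 3 that fell were the desaturase genes Scd2 (log2 -0.50 ± 0.058, adjusted p = 9.31e-10) and Fads1 (log2 -0.17 ± 0.028, adjusted p = 2.40e-06) and the elongase gene Elovl1 (log2 -0.10 ± 0.036, adjusted p = 0.026). The call of Elovl1 was lost without GSK2033 replicate 5 or GSK2033 + 27HC replicate 1, 2 or 3, with no count filter and in the fit to 10 libraries, with a largest adjusted p of 0.19 by edgeR.

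Of 15 genes of sterol esterification, storage and transport, 7 rose and 4 fell (median 0.09), beside 17.1% and 18.8% of all genes. Npc1, which takes cholesterol out of lysosomes through the membrane, rose (log2 0.27 ± 0.023, adjusted p = 1.16e-13), while its soluble partner Npc2 fell to 1466 ± 22.3 CPM with GSK2033 + 27HC, against 2150.0 ± 80.2 CPM with GSK2033 (log2 -0.55 ± 0.031, adjusted p = 2.28e-19). Stard3, a carrier at late endosomes, fell (log2 -0.61 ± 0.031, adjusted p = 3.15e-21), and so did Cyp27a1, the enzyme that makes 27HC (log2 -0.59 ± 0.082, adjusted p = 8.99e-08). Osbpl8, an oxysterol-binding protein gene, rose (log2 0.40 ± 0.037, adjusted p = 2.17e-12). For Npc1, Npc2, Stard3 and Cyp27a1 the difference from the response without GSK2033 did not pass.

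PPAR targets and lipid droplet genes mostly rose, 9 of 15 with 3 that fell (median 0.21), beside 17.1% and 18.8% of all genes. The share that fell is near that of all genes. Cd36, the scavenger receptor that takes up oxidised lipid, had 1341, 1375, 1358, 1374 and 1391 CPM with GSK2033 + 27HC, against 994, 972, 997, 942 and 964 CPM with GSK2033. All 5 were higher than every GSK2033 library (log2 0.49 ± 0.027, adjusted p = 3.97e-20), and the rise was larger with 27HC alone (log2 1.26, difference -0.77 ± 0.037, adjusted p = 3.95e-21). Fabp4, a fatty acid carrier, rose to 49.7 ± 1.95 CPM with GSK2033 + 27HC, against 30.9 ± 1.59 CPM with GSK2033 (log2 0.69 ± 0.058, adjusted p = 1.59e-13). Angptl4, a lipase inhibitor, rose more than with 27HC alone (log2 0.56 ± 0.057, adjusted p = 3.89e-11; difference 0.40 ± 0.082, adjusted p = 2.21e-04). Hilpda, which guards lipid droplets from lipolysis, rose (log2 0.61 ± 0.068, adjusted p = 5.04e-10).

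All 28 interferon-responsive genes fell with 27HC under GSK2033, each with no overlap between the groups, and the list median was -1.40. All 28 also fell with 27HC alone (median -1.82) and under ICI (median -1.99). The fall was smaller under GSK2033 than alone for 23 of the 28 by the test of the difference, and larger for 0. Over all genes 18.8% fell. Macrophage marker levels were also lower in the GSK2033 + 27HC libraries, as given above, and their part was not tested.

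Irf7 (ENSMUSG00000025498, chr7:141262706-141266481, minus strand), a transcription factor that amplifies interferon production, had 363, 329, 337, 362 and 337 CPM with GSK2033 + 27HC, against 1089, 1066, 1098, 998 and 1021 CPM with GSK2033. It fell 3.05-fold (log2 -1.61 ± 0.045, adjusted p = 2.38e-30), and 4.27-fold with 27HC alone (difference 0.49 ± 0.061, adjusted p = 2.51e-08). Ifit2 (ENSMUSG00000045932, chr19:34550694-34576419, plus strand), an antiviral effector, had 122, 105, 129, 119 and 129.9 CPM with GSK2033 + 27HC, against 518, 477, 513, 479 and 495 CPM with GSK2033. Its GSK2033 libraries stood above Vehicle (305 ± 9.67 CPM), and 27HC alone gave 36.1 ± 7.01 CPM. The log2 fold change was -2.04 ± 0.075 under GSK2033 and -3.08 ± 0.080 alone (difference 1.04 ± 0.11, adjusted p = 1.78e-10).

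The 3 interferon genes whose promoters are printed above fell likewise. Ifit3b had 28.3, 22.2, 31.1, 26.3 and 29.1 CPM with GSK2033 + 27HC, against 126, 118, 129, 115 and 126 CPM with GSK2033 (log2 -2.17 ± 0.075, adjusted p = 6.06e-27); it is close in sequence to Ifit3, so reads may be shared between them. Oas3, which makes the oligoadenylates that activate RNase L, fell to 302 ± 18.4 CPM with GSK2033 + 27HC, against 666 ± 18.2 CPM with GSK2033 (log2 -1.14 ± 0.040, adjusted p = 5.51e-27). Rsad2, viperin, fell to 76.6 ± 4.22 CPM with GSK2033 + 27HC against 211 ± 8.19 CPM with GSK2033 (log2 -1.46 ± 0.051, adjusted p = 5.51e-27). With 27HC alone their log2 fold changes were -3.20, -1.50 and -1.86, each difference past its test.

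Of 18 genes of MHC class I and peptide loading, which show peptides to cytotoxic T cells, 16 fell and 0 rose (median -0.80), against 16 and 1 with 27HC alone (median -0.88), and the difference was higher for 8 and lower for 2. Over all genes 18.8% fell under GSK2033 and 17.1% rose, and the difference was higher for 9.34% and lower for 10.3%. The list's share with a lower difference is near that of all genes. H2-K1 had 2382, 2355, 2417, 2376 and 2369 CPM with GSK2033 + 27HC, against 4397, 4211, 4368, 4014 and 4367 CPM with GSK2033. The groups stood well apart (log2 -0.84 ± 0.032, adjusted p = 1.08e-25). H2-T23, whose promoter also holds the ISRE core, fell 2.16-fold (log2 -1.11 ± 0.038, adjusted p = 1.72e-27), H2-Q4 2.09-fold (log2 -1.07 ± 0.046, adjusted p = 8.73e-24) and H2-Q7 2.75-fold (log2 -1.46 ± 0.055, adjusted p = 6.37e-26). H2-Q genes are near copies of one another, so their separate values are uncertain. B2m, the shared light chain, fell (log2 -0.70 ± 0.030, adjusted p = 1.08e-23) with no difference past the test from 27HC alone (log2 -0.76).

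MHC class II and co-stimulation gave 9 of 12 that fell and 0 that rose (median -0.60), as with 27HC alone (9 and 0, median -0.58). Over all genes 18.8% fell under GSK2033 and 17.1% rose. H2-Aa and H2-Ab1, the chains of I-A, fell to 36.5 ± 1.82 and 47.4 ± 0.471 CPM with GSK2033 + 27HC, against 58.7 ± 1.37 and 77.1 ± 2.52 CPM with GSK2033 (log2 -0.68 and -0.70, adjusted p = 1.31e-13 and 1.22e-17). Cd74, their chaperone, and Ctss, the protease that trims it, fell (log2 -0.68 ± 0.039 and -0.63 ± 0.028).

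**Figure D3:**
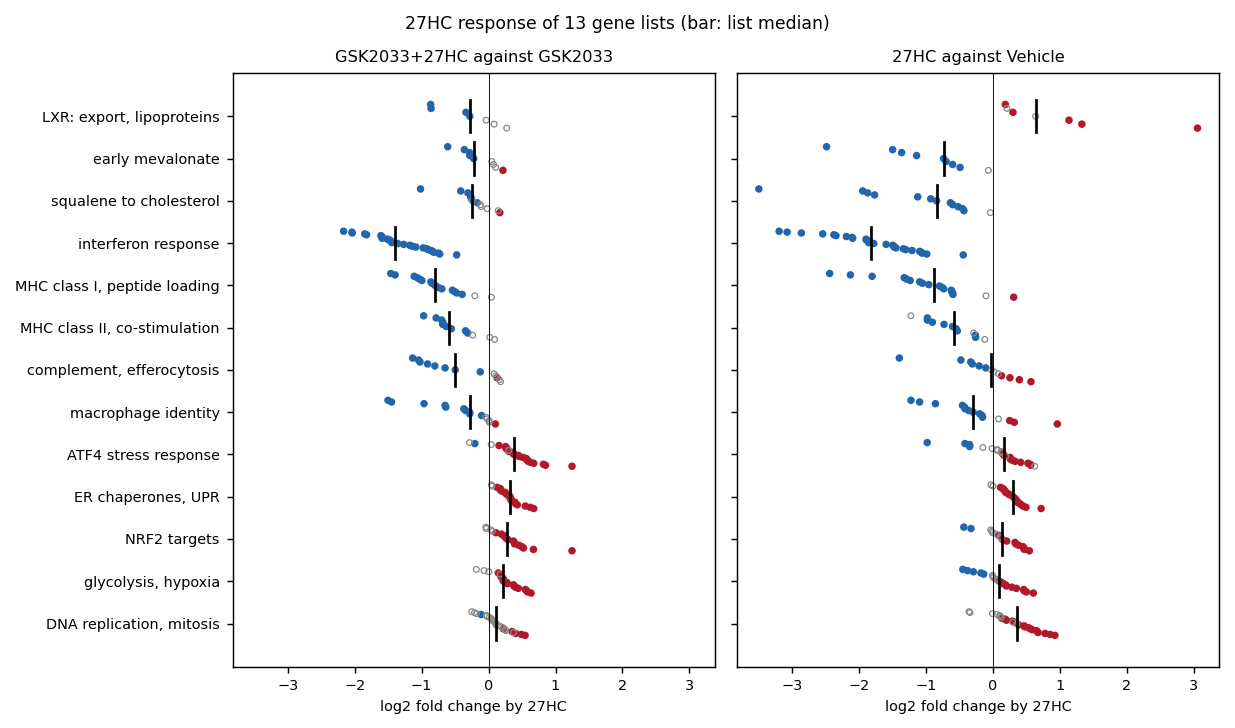
Log2 fold change of every tested member of 13 gene lists, GSK2033 + 27HC against GSK2033 on the left and 27HC against Vehicle on the right. Filled points passed the test (red higher, blue lower), open grey points did not, and the bar is the list median, which for the interferon response stands at -1.40 on the left and -1.82 on the right.

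Of 22 inflammatory cytokines and chemokines, 11 fell and 4 rose (median -0.30), beside 18.8% and 17.1% of all genes. The share that rose is near that of all genes. Il1b (ENSMUSG00000027398, chr2:129364570-129371139, minus strand), interleukin 1 beta, had 19.8, 23.1, 20.2, 15.8 and 17.9 CPM with GSK2033 + 27HC, against 112, 128, 95.8, 109 and 87.4 CPM with GSK2033. It fell 5.5005-fold (log2 -2.46 ± 0.17, adjusted p = 2.28e-15) and 5.98-fold with 27HC alone, a difference that did not pass (log2 0.12 ± 0.23, adjusted p = 0.78). Ccl5, which draws T cells, had 167, 151, 149, 163 and 160.5 CPM with GSK2033 + 27HC against 649.9, 702, 688, 650.1 and 689 CPM with GSK2033. It fell 4.27-fold (log2 -2.10 ± 0.048, adjusted p = 3.62e-33), more than with 27HC alone (difference -0.22 ± 0.065, adjusted p = 0.013).

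Il1a, interleukin 1 alpha, fell under GSK2033, with 2.02, 2.798, 1.89, 1.39 and 1.305 CPM with GSK2033 + 27HC against 6.02, 5.72, 4.92, 5.68 and 3.27 CPM with GSK2033 (log2 -1.45 ± 0.21, adjusted p = 1.99e-07). Its fold change differed from that with 27HC alone (difference -1.06 ± 0.27, adjusted p = 0.0031), where it was -0.39 and did not pass. Cxcl16 fell (log2 -0.66 ± 0.035, adjusted p = 2.61e-20). In the other direction, Cxcl2, a neutrophil attractant, had 93.2, 102, 96.6, 85.7 and 84.5 CPM with GSK2033 + 27HC, against 54.8, 57.1, 54.3, 53.7 and 54.002 CPM with GSK2033, all higher in the first group (log2 0.75 ± 0.11, adjusted p = 3.21e-07). Lcn2, which sequesters bacterial iron carriers and was singled out after its values were seen, had 31.3, 31.2, 31.6, 28.2 and 27.98 CPM with GSK2033 + 27HC against 19.9, 21.9, 18.996, 20.7 and 16.3 CPM with GSK2033 (log2 0.62 ± 0.15, adjusted p = 0.001). It fell with 27HC alone (log2 -1.02, difference 1.63 ± 0.23, adjusted p = 2.93e-07).

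Of 15 NF-kB subunits and feedback genes, 10 fell and 1 rose (median -0.24). Nfkbiz, a nuclear co-factor of NF-kB, had 23.1, 27.6, 25.6, 21.9 and 21.2 CPM with GSK2033 + 27HC, against 56.8, 60.1, 54.1, 55.04 and 44.4 CPM with GSK2033 (log2 -1.18 ± 0.085, adjusted p = 9.82e-16), and fell as far with 27HC alone (log2 -1.08 ± 0.081; the difference did not pass). The subunit gene Nfkb1 fell by less (log2 -0.24 ± 0.044, adjusted p = 2.33e-05). Genes that inhibit T cells, such as checkpoint ligands, gave 8 that fell and 4 that rose of 13, and genes of alternative activation 4 that fell and 1 that rose of 9. Over all genes 18.8% fell and 17.1% rose. The 1 of 9 that rose is no more than that share.

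Of 13 complement and efferocytosis genes, 8 fell and 1 rose (median -0.50), beside 18.8% and 17.1% of all genes. With 27HC alone 6 fell and 4 rose (median -0.02). The difference was lower for 8 and higher for 1, beside 10.3% and 9.34% of all genes. Under ICI 9 fell and 2 rose (median -0.46), close to the response under GSK2033. The difference between the responses under GSK2033 and ICI was lower for 4 and higher for 2. C1qa (ENSMUSG00000036887, chr4:136895917-136898803, minus strand), which with C1qb and C1qc builds the recognition unit of complement, had 729, 687, 749, 722 and 714 CPM with GSK2033 + 27HC, against 1580.2, 1588, 1606, 1531 and 1598 CPM with GSK2033. It fell 2.19-fold (log2 -1.13 ± 0.034, adjusted p = 2.53e-29), against 1.39-fold with 27HC alone (difference -0.65 ± 0.047, adjusted p = 3.39e-15). C1qb and C1qc fell (log2 -0.80 and -0.91), also with 27HC alone (log2 -0.11 and -0.21), with differences of -0.70 ± 0.048 and -0.70 ± 0.041 (adjusted p = 1.33e-15 and 5.51e-18).

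C3ar1, a receptor of a C3 fragment, had 591, 561, 566, 609 and 630.1 CPM with GSK2033 + 27HC, against 1229, 1176, 1255, 1224 and 1222 CPM with GSK2033 (log2 -1.05 ± 0.029, adjusted p = 2.30e-30; difference -0.74 ± 0.040, adjusted p = 4.38e-19). C3 itself fell (log2 -1.02 ± 0.063, adjusted p = 6.65e-18) but by less than with 27HC alone (log2 -1.40). Axl, a receptor for dying cells singled out after its values were seen, fell (log2 -0.50 ± 0.051, adjusted p = 3.84e-11).

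Of 15 macrophage identity genes, 10 fell and 1 rose (median -0.28), beside 18.8% and 17.1% of all genes. Adgre1 (ENSMUSG00000004730, chr17:57358691-57483527, plus strand), the F4/80 antigen, had 2192, 2101, 2159.6, 2329 and 2341 CPM with GSK2033 + 27HC, against 4447, 4295, 4196, 4518 and 4243 CPM with GSK2033. It fell 1.95-fold (log2 -0.96 ± 0.031, adjusted p = 3.59e-28) and 2.14-fold with 27HC alone. Csf1r, the growth factor receptor of macrophages, fell by less (log2 -0.34 ± 0.022, adjusted p = 7.55e-18), at 1816 ± 45.7 CPM with GSK2033 + 27HC against 2306 ± 65.2 CPM with GSK2033. Fcgr1, a high-affinity Fc receptor, fell 2.73-fold (log2 -1.45 ± 0.043, adjusted p = 2.32e-29), more than alone (difference -0.59 ± 0.059, adjusted p = 7.52e-11), and Aif1, an actin-binding protein gene, 2.83-fold (log2 -1.50 ± 0.057, adjusted p = 1.61e-25). Lipid-associated macrophage genes gave 8 that rose and 2 that fell of 13 (median 0.11), against 12 and 1 with 27HC alone (median 0.35), with the difference lower for 7 and higher for 2. Over all genes the difference was lower for 10.3% and higher for 9.34%. The share of the 13 that fell under GSK2033 is near the 18.8% of all genes.

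Genes of the integrated stress response, which ATF4 switches on when amino acids are short or protein folding fails, rose under GSK2033: 21 of 25 rose and 1 fell (median 0.38). With 27HC alone 12 rose and 5 fell (median 0.16), and under ICI 20 rose and 1 fell (median 0.54). The difference from 27HC alone was higher for 14 and lower for 1, beside 9.34% and 10.3% of all genes. None of the 25 had a lower mean with GSK2033 than with Vehicle.

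Slc7a11 (ENSMUSG00000027737, chr3:49892526-50443614, minus strand), the cystine importer, had 259.99, 282, 287, 284 and 295 CPM with GSK2033 + 27HC, against 128, 119, 113, 124 and 111 CPM with GSK2033. All 5 stood above every GSK2033 library, 2.37-fold (log2 1.25 ± 0.076, adjusted p = 4.77e-18). With 27HC alone it had 43.3 ± 3.38 CPM, against 39.7 ± 5.13 CPM with Vehicle, and did not pass (log2 0.12 ± 0.080, adjusted p = 0.23), so the difference was 1.12 ± 0.11, adjusted p = 6.02e-11. Under ICI it rose (log2 1.77 ± 0.082). Slc3a2, the partner chain of that importer, rose (log2 0.37 ± 0.029, adjusted p = 1.05e-14).

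Atf4 itself had 308, 315, 325, 304 and 309 CPM with GSK2033 + 27HC, against 229, 232, 235, 218 and 230.3 CPM with GSK2033 (log2 0.45 ± 0.028, adjusted p = 4.30e-18). Trib3, a pseudokinase gene and ATF4 target, had 66.9, 69.2, 70.5, 71.1 and 69.2 CPM with GSK2033 + 27HC, against 35.6, 37.6, 39.7, 37.4 and 42.3 CPM with GSK2033 (log2 0.85 ± 0.048, adjusted p = 2.19e-19), with 27HC at 15.8 ± 0.537 and Vehicle at 10.7 ± 1.01 CPM. Gdf15, a secreted stress hormone, had 88.4, 86.2, 84.9, 78.8 and 83.1 CPM with GSK2033 + 27HC, against 44.7, 48.1, 51.8, 42.6 and 51.7 CPM with GSK2033. The groups did not overlap (log2 0.82 ± 0.044, adjusted p = 3.63e-20), and the rise was larger than alone (difference 0.56 ± 0.067, adjusted p = 7.20e-09). Pck2, a mitochondrial enzyme of gluconeogenesis, rose (log2 0.56 ± 0.047, adjusted p = 1.11e-13). The 1 that fell was Nupr1 (log2 -0.20 ± 0.057, adjusted p = 0.0039), the gene with the ATF4 element in its promoter, singled out after its values were seen.

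Chaperones of the endoplasmic reticulum and other unfolded protein genes rose in both settings, 18 of 20 with 0 that fell under GSK2033 (median 0.32) and 18 with 0 alone (median 0.30). Over all genes 17.1% rose under GSK2033 and 20.3% alone. Hspa5 (ENSMUSG00000026864, chr2:34771970-34777547, plus strand), the chaperone BiP, had 1868, 1957, 1925, 1784 and 1803 CPM with GSK2033 + 27HC, against 1247, 1225, 1239, 1165 and 1184 CPM with GSK2033. It rose 1.54-fold (log2 0.62 ± 0.023, adjusted p = 1.82e-26), slightly more than alone (log2 0.49, difference 0.13 ± 0.031, adjusted p = 0.0015). Hyou1, a related chaperone, and Dnajb9, a co-chaperone of BiP, rose by log2 0.68 ± 0.027 and 0.55 ± 0.031. Xbp1, a transcription factor of this response, rose by less than alone (log2 0.19 ± 0.025 against 0.42 ± 0.024).

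NRF2 targets, which defend against oxidants, gave 14 that rose and 0 that fell of 18 (median 0.28), against 10 and 2 alone (median 0.13). Slc7a11 belongs to this list as well. Over all genes 17.1% rose and 18.8% fell under GSK2033. Srxn1 (ENSMUSG00000032802, chr2:152105516-152111376, plus strand), sulfiredoxin, had 353, 354, 354, 354 and 351 CPM with GSK2033 + 27HC, against 219.96, 224, 218, 231 and 217 CPM with GSK2033. The first group kept within 3 CPM and stood far above the second (log2 0.67 ± 0.022, adjusted p = 7.18e-28). Txnrd1, thioredoxin reductase, rose (log2 0.52 ± 0.026, adjusted p = 2.94e-21), as did Cat, catalase (log2 0.38 ± 0.021, adjusted p = 1.16e-19), Prdx1, a peroxiredoxin (log2 0.49 ± 0.034, adjusted p = 1.19e-16), and Hmox1, heme oxygenase (log2 0.37 ± 0.025, adjusted p = 6.05e-17). For Srxn1, Cat and Prdx1 the rise was larger than alone and for Hmox1 smaller, each by the test of the difference. The zinc-binding metallothioneins Mt1 and Mt2 rose to 58.3 ± 1.82 and 18.8 ± 1.83 CPM with GSK2033 + 27HC, against 42.5 ± 1.24 and 13.4 ± 1.28 CPM with GSK2033 (log2 0.46 ± 0.048 and 0.49 ± 0.075).

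Genes of glycolysis and the hypoxia response rose under GSK2033, 17 of 21 with 0 that fell (median 0.22), beside 17.1% and 18.8% of all genes. Alone 11 rose and 5 fell (median 0.09), and the difference was higher for 11 and lower for 0. Slc2a1, the glucose transporter GLUT1, had 175, 176, 165, 179 and 174 CPM with GSK2033 + 27HC, against 123, 129, 125, 131 and 131 CPM with GSK2033 (log2 0.44 ± 0.035, adjusted p = 1.23e-14; difference 0.26 ± 0.049, adjusted p = 7.23e-05). Pgk1, Pgam1 and Eno1, enzymes of the lower pathway, rose by log2 0.40 ± 0.035, 0.37 ± 0.022 and 0.28 ± 0.027, and Eno1 did not pass with 27HC alone (log2 0.04 ± 0.025, adjusted p = 0.25; difference 0.24 ± 0.037, adjusted p = 1.47e-06). Vegfa, the vessel growth factor, and Ndrg1 rose by 0.57 ± 0.056 and 0.63 ± 0.053.

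Of 26 genes of DNA replication and mitosis, 5 rose and 1 fell under GSK2033 (median 0.11), and the share that rose was close to the 17.1% of all genes. With 27HC alone 17 rose and 0 fell (median 0.35), beside 20.3% of all genes that rose. The difference was lower for 7 and higher for 0, beside 10.3% and 9.34% of all genes. Under ICI 3 rose and 2 fell (median 0.03). The difference between the responses under GSK2033 and ICI was higher for 2 of the 26 and lower for 1. Pcna (ENSMUSG00000027342, chr2:132249162-132253314, minus strand), the sliding clamp of DNA polymerase, had 180.2, 181, 172, 178 and 173 CPM with GSK2033 + 27HC and 185, 176, 184, 155 and 181 CPM with GSK2033. The groups overlapped (log2 0.01; 95% interval -0.07 to 0.09), where 27HC alone gave 294 ± 13.02 CPM against 163 ± 9.49 CPM with Vehicle (difference -0.84 ± 0.055, adjusted p = 2.26e-16). Mcm5, of the replicative helicase, had 30.5, 25.7, 27.9, 29.2 and 30.6 CPM with GSK2033 + 27HC and 21.6, 19.9, 22.9, 21.7 and 22.8 CPM with GSK2033, a rise (log2 0.40 ± 0.059, adjusted p = 2.29e-07) smaller than alone (log2 0.93, difference -0.52 ± 0.080, adjusted p = 2.07e-06). Mcm2, another helicase subunit, rose (log2 0.55 ± 0.12, adjusted p = 1.91e-04).

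Of 13 genes of D cyclins, CDK inhibitors and their partners, 5 rose and 4 fell under GSK2033 (median 0.05, members from -0.56 to 1.46), beside 17.1% and 18.8% of all genes. Ccnd1, cyclin D1, rose to 284 ± 10.1 CPM with GSK2033 + 27HC, against 176 ± 6.29 CPM with GSK2033 (log2 0.69 ± 0.047, adjusted p = 1.64e-16). Cdkn1c, a CDK inhibitor, had 14.1, 16.8, 15.9, 15.96 and 17.8 CPM with GSK2033 + 27HC, against 6.14, 5.41, 6.08, 6.18 and 5.53 CPM with GSK2033 (log2 1.46 ± 0.13, adjusted p = 1.23e-12). Among those that fell, Cdkn1a, another CDK inhibitor, had 418, 421, 434, 443 and 442 CPM with GSK2033 + 27HC, against 543, 549, 557, 546 and 551 CPM with GSK2033 (log2 -0.35 ± 0.025, adjusted p = 9.17e-16), and Ccnd3, cyclin D3, fell too (log2 -0.23 ± 0.053, adjusted p = 5.36e-04). Igf1, insulin-like growth factor, averaged 424 ± 8.25 CPM with GSK2033 + 27HC and 441 ± 21.8 CPM with GSK2033, a difference of -0.06 (95% interval -0.12 to 0.01), where it rose with 27HC alone (log2 0.69; difference -0.74 ± 0.046, adjusted p = 2.44e-17). Estrogen-responsive genes as a list moved both ways, 5 higher and 5 lower of 13, beside 17.1% and 18.8% of all genes.

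Of 25 immediate early genes, 11 rose and 7 fell, beside 17.1% and 18.8% of all genes, against 13 and 4 alone, and the difference was lower for 14 and higher for 4. Dusp4, a MAP kinase phosphatase, had 39.05, 40.96, 39.7, 41.8 and 41.1 CPM with GSK2033 + 27HC, against 18.7, 20.3, 19.04, 22.9 and 18.99 CPM with GSK2033 (log2 1.02 ± 0.061, adjusted p = 1.47e-18; alone 1.66, difference -0.64 ± 0.086, adjusted p = 1.47e-07). Zfp36, which destabilises cytokine mRNA, fell to 94.3 ± 1.76 CPM with GSK2033 + 27HC, against 149 ± 4.71 CPM with GSK2033 (log2 -0.66 ± 0.037, adjusted p = 1.58e-19), and rose alone (log2 0.25; difference -0.91 ± 0.051, adjusted p = 9.39e-19). Jun rose in both (log2 0.45 and 0.61). Lysosomal genes gave 9 higher and 12 lower of 28, secreted proteases 8 and 4 of 17, scavenger receptors 2 and 3 of 11, and the mitochondrially encoded transcripts 4 and 1 of 13. Over all genes 17.1% were higher and 18.8% lower, and the scavenger receptors' counts are near those shares.

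The genes that fell furthest, among those called with a mean of at least 1 CPM and no overlap between the groups, were led by Ms4a4c. Ms4a4c (ENSMUSG00000024675, chr19:11404770-11427246, plus strand), of the membrane-spanning 4A family, had 7.91, 7.38, 6.68, 8.54 and 9.76 CPM with GSK2033 + 27HC, against 175, 169.5, 161, 143 and 159 CPM with GSK2033. It fell 20.1-fold (log2 -4.33 ± 0.13, adjusted p = 3.88e-28), and 25.9-fold with 27HC alone. Slc13a3, a dicarboxylate transporter gene, had 15.1, 13.9, 14.5, 16.8 and 15.02 CPM with GSK2033 + 27HC, against 231, 224, 232, 216 and 208 CPM with GSK2033. It fell 14.7-fold (log2 -3.88 ± 0.080, adjusted p = 7.51e-35), more than alone (difference -0.89 ± 0.11, adjusted p = 2.20e-08), and so did Fgl2, a fibrinogen-like immune regulator, 9.72-fold (log2 -3.28 ± 0.054, adjusted p = 6.68e-39; difference -0.63 ± 0.074, adjusted p = 5.84e-09).

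Slfn1, a schlafen gene, fell 6.498-fold (log2 -2.70 ± 0.095, adjusted p = 7.30e-27), far less than the 21.7-fold seen alone (difference 1.74 ± 0.17, adjusted p = 2.39e-11); its row repeats the values of another row, so its level is a share. The other 8 of the 12 lowest by the naming rule were Ifit1bl1, Cd300e, Cxcl9, Clec4b1, Iigp1, BC147527, Ifi214 and Gbp4, between -2.75 and -2.49. Cxcl9, a T cell attractant induced by interferon, had 2.69, 1.71, 2.69, 1.97 and 2.88 CPM with GSK2033 + 27HC, against 13.2, 14.8, 15.4, 14.7 and 17.4 CPM with GSK2033. The libraries of the groups stood apart for all 12, which the rule required.

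**Figure D4:**
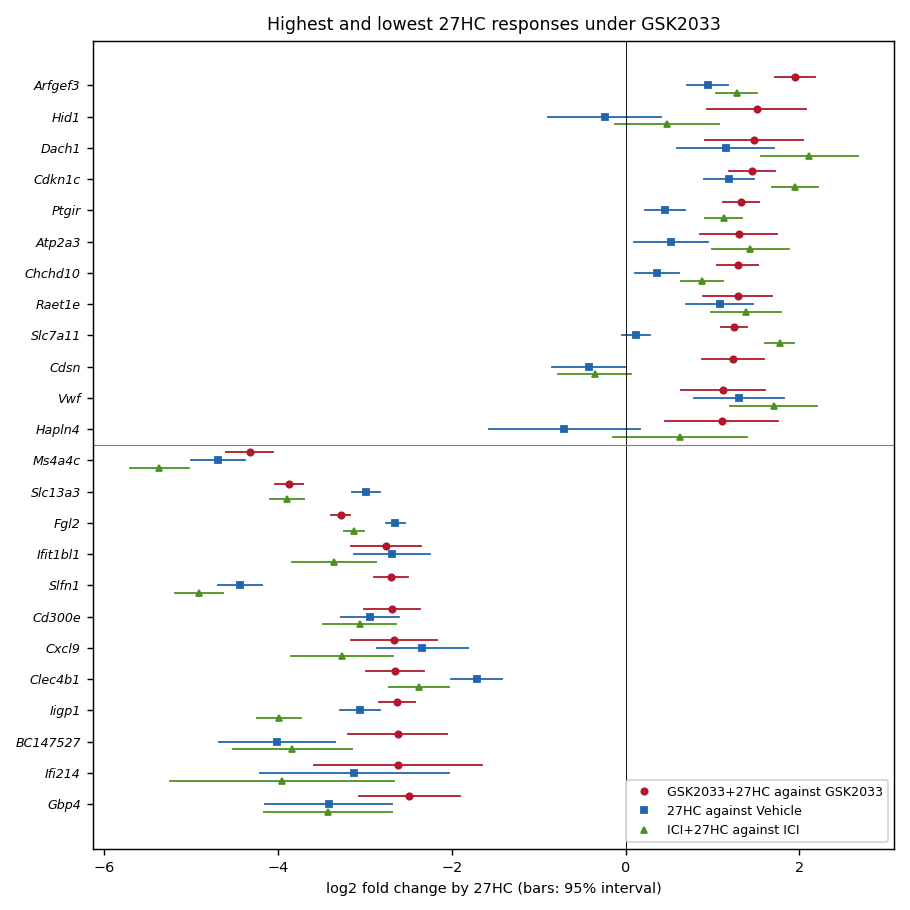
Log2 fold change with 95% interval of the 12 highest and 12 lowest genes of the naming rule, for GSK2033 + 27HC against GSK2033, 27HC against Vehicle and ICI + 27HC against ICI. The 12 lowest fell in all 3 comparisons, while Cdsn, Hid1 and Hapln4 at the high end stand above 0 under GSK2033 and did not pass in the other 2.

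The genes that rose furthest by the same rule were led by Arfgef3. Arfgef3 (ENSMUSG00000019852, chr10:18581839-18743949, minus strand), of a family that activates Arf GTPases, had 8.16, 8.32, 7.56, 8.47 and 8.05 CPM with GSK2033 + 27HC, against 2.06, 1.697, 1.86, 2.59 and 2.31 CPM with GSK2033. It rose 3.86-fold (log2 1.95 ± 0.12, adjusted p = 1.04e-18), more than alone (difference 1.01 ± 0.16, adjusted p = 6.46e-06). Cdsn, corneodesmosin, an adhesion protein of skin, had 6.82, 6.18, 4.999, 6.28 and 6.52 CPM with GSK2033 + 27HC, against 2.22, 2.96, 2.18, 2.91 and 2.81 CPM with GSK2033. It rose under GSK2033 (log2 1.23 ± 0.18, adjusted p = 1.82e-07) and differed from 27HC alone (difference 1.65 ± 0.27, adjusted p = 8.53e-06) and from 27HC under ICI (difference 1.59 ± 0.28, adjusted p = 2.86e-05).

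Ptgir, the prostacyclin receptor, had 19.6, 21.5, 19.3, 18.9 and 20.8 CPM with GSK2033 + 27HC, against 8.12, 7.73, 7.76, 9.04 and 7.13 CPM with GSK2033 (log2 1.33 ± 0.10, adjusted p = 3.67e-15; difference from alone 0.87 ± 0.15, adjusted p = 1.56e-05). Chchd10, of the mitochondrial intermembrane space, had 17.6, 16.9, 17.01, 15.9 and 15.3 CPM with GSK2033 + 27HC, against 5.21, 7.34, 7.01, 8.05 and 6.23 CPM with GSK2033 (log2 1.29 ± 0.12, adjusted p = 7.83e-13). Both groups of values stood apart for each. The others of the 12 highest, beside Slc7a11 and Cdkn1c, were Hid1, Dach1, Atp2a3, Raet1e, Vwf and Hapln4, between 1.11 and 1.51.

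Setting each gene's response beside that without antagonist, 3235 genes were called in both, 65.2% of those called under GSK2033 and 58.0% of those called with 27HC alone (40.3% of all genes, 2812 higher, which is 20.3%, and 2764 lower). Of these, 2948 had the same sign (91.1%) and 287 the opposite. Across the 13838 genes the log2 fold changes correlated with r = 0.45 (Spearman 0.46), a description over genes, which are not independent. The difference itself passed for 2712 genes (19.6%), 1292 higher (9.34%) and 1420 lower (10.3%).

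Of the 7299 genes called in either, 2136 (29.3%) were called in both with the same sign and no difference past the test, and 521 (7.14%) kept the sign with a smaller change under GSK2033, against 291 (3.99%) with a larger one. The 287 with opposite signs were 3.93%. Another 871 (11.9%) were called with 27HC alone, not under GSK2033, and 658 (9.01%) under GSK2033, not alone, all with the difference past its test. The remaining 2535 (34.7%) were called in 1 comparison with no difference past the test and cannot be placed.

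**Figure D5:**
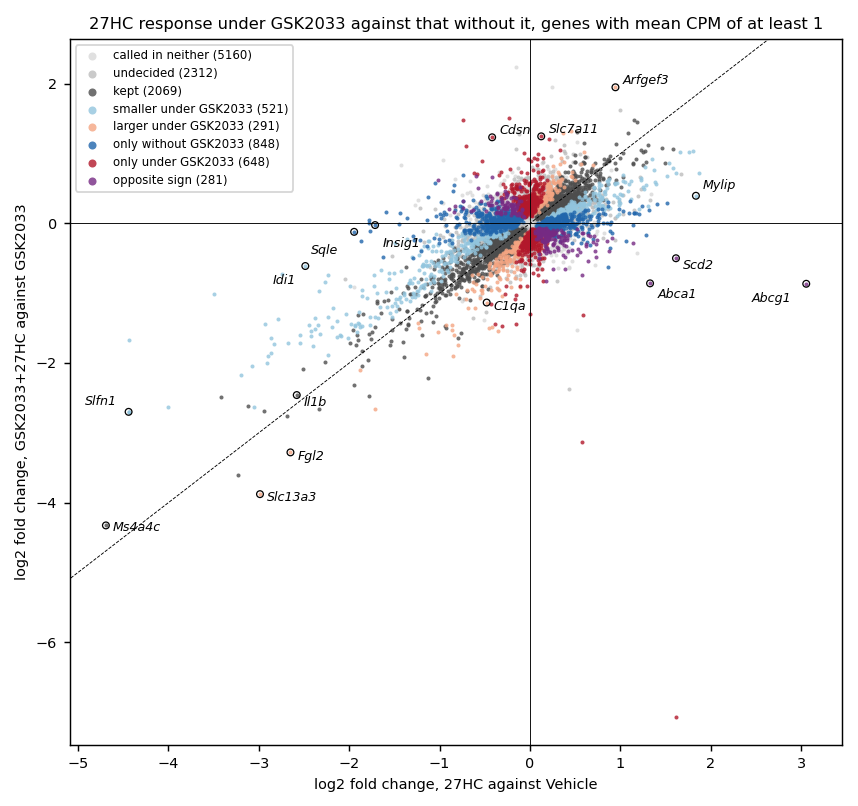
Log2 fold change of 27HC against Vehicle (x) and of GSK2033 + 27HC against GSK2033 (y) for 12130 genes with a mean of at least 1 CPM, coloured by how the responses compare, with the line of equality dashed. Abca1, Abcg1 and Scd2 lie at the lower right, Idi1, Insig1 and Sqle well above the line on the left, and Ms4a4c, Il1b and Fgl2 near or below it.

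Genes called in both with the same sign and no difference past the test are not thereby shown to respond equally. Among them were the lectin receptor genes Clec4a1 and Clec4a3, the Fc receptor gene Fcgr4, the secreted glycoprotein gene Lgals3bp and Tor3a. Clec4a1 had 181, 173, 186, 184 and 194 CPM with GSK2033 + 27HC, against 537, 525, 539, 527 and 531 CPM with GSK2033 (log2 -1.53 ± 0.036, adjusted p = 5.38e-33), and with 27HC alone its log2 fold change was -1.53 ± 0.035. Txnip, an inhibitor of thioredoxin, fell by less under GSK2033 (log2 -0.33 ± 0.022 against -1.17 ± 0.021; difference adjusted p = 1.09e-25), and Id2, an inhibitor of bHLH factors, rose by less (0.20 ± 0.031 against 1.21 ± 0.030; difference adjusted p = 8.67e-23).

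Among genes with a larger response under GSK2033, Lgmn, a lysosomal protease, had 460.1, 450.2, 466, 454 and 442 CPM with GSK2033 + 27HC, against 868, 841, 891, 816 and 847 CPM with GSK2033. It fell (log2 -0.91 ± 0.023, adjusted p = 9.71e-32), and by far less alone (log2 -0.11, difference -0.79 ± 0.032, adjusted p = 1.04e-23). Cd72, an inhibitory receptor, fell 2.83-fold under GSK2033 and 1.37-fold alone (difference -1.04 ± 0.060, adjusted p = 3.70e-18), and Efhd2, a calcium-binding protein gene, fell in both (log2 -0.48 under GSK2033 and -0.08 alone).

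Opposite signs, beside Abca1, Lpl and Scd2, were found for B4galt6, which makes lactosylceramide, Rasgef1b and Cd180, a Toll-like receptor relative. They fell under GSK2033 (log2 -0.18, -0.21 and -0.39) and rose alone by 0.71, 0.91 and 0.72. Genes called under GSK2033 with no call alone included Calu, a calcium-binding protein of the endoplasmic reticulum, with 515, 539.6, 523, 525 and 544 CPM with GSK2033 + 27HC against 377, 362, 371, 367 and 364 CPM with GSK2033 (log2 0.52 ± 0.023, adjusted p = 1.38e-23; alone 0.05 ± 0.022, adjusted p = 0.067). Glrx, glutaredoxin, fell under GSK2033 (log2 -0.66 ± 0.033, adjusted p = 2.08e-21; alone -0.07 ± 0.031, adjusted p = 0.068), and Apobec1, an RNA editing enzyme, did so as well (log2 -0.58 ± 0.031, adjusted p = 4.03e-20; alone 0.00 ± 0.030, adjusted p = 0.94). Ehd4, of endocytic recycling, and Evi2a fell (log2 -0.48 and -0.53).

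The response under ICI, the ER antagonist, was compared with that under GSK2033. Whether ICI leaves the LXR response whole was not tested. With 27HC under ICI 5586 genes were called (40.4%), 2725 higher (19.7%) and 2861 lower (20.7%). Both responses called 3558 genes, 71.8% of those under GSK2033 and 63.7% of those under ICI, with 3451 of the same sign (97.0%) and 107 opposite. Across genes r was 0.58 (Spearman 0.57). The difference between these 2 responses passed for 1698 genes (12.3%), 862 higher under GSK2033 (6.23%) and 836 lower (6.04%). Same-sign calls in all 3 comparisons numbered 2553.

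Part of that difference lay in LXR targets. Under ICI 4 of the 7 export and lipoprotein genes rose and 1 fell, beside 19.7% and 20.7% of all genes. Their median was 0.15 under ICI, against 0.64 with 27HC alone, and the difference between those responses was not tested. Abcg1 rose by log2 1.59 ± 0.068 under ICI (difference from GSK2033 -2.46 ± 0.29, adjusted p = 9.11e-09), Scd2 by 1.66 ± 0.043 (difference -2.16 ± 0.072, adjusted p = 2.75e-26), Arl4c by 0.69 ± 0.021 (difference -0.70 ± 0.031, adjusted p = 1.43e-21) and Mylip by 1.10 ± 0.035 (difference -0.71 ± 0.065, adjusted p = 1.64e-11). Lpl rose by 0.21 ± 0.048 (difference -0.49 ± 0.068, adjusted p = 4.89e-07). Insig1 fell (log2 -0.48 ± 0.038; difference 0.46 ± 0.053, adjusted p = 5.34e-09).

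Of the 28 interferon-responsive genes the difference from the response under ICI was higher for 25 and lower for 0, beside 6.23% and 6.04% of all genes. It was higher for 8 and lower for 1 of 18 MHC class I genes, and higher for 4 and lower for 9 of 22 inflammatory cytokines and chemokines. Irf7 and Ifit2 fell further under ICI than under GSK2033 (log2 -2.60 and -3.52; differences 0.99 ± 0.062, adjusted p = 1.28e-16 and 1.48 ± 0.11, adjusted p = 2.27e-14), as did Clec4a1 (difference 1.02 ± 0.052, adjusted p = 1.13e-19), Slfn1 (difference 2.21 ± 0.18, adjusted p = 5.05e-13), Iigp1 (difference 1.36 ± 0.17, adjusted p = 3.01e-08) and Ms4a4c (difference 1.04 ± 0.24, adjusted p = 0.0017). C1qa fell under ICI (log2 -1.05 ± 0.034), and the difference did not pass (log2 -0.08 ± 0.048, adjusted p = 0.32). Il1a rose under ICI (log2 0.74 ± 0.19, adjusted p = 0.0011; difference -2.19 ± 0.28, adjusted p = 7.54e-08) and Lcn2 fell (log2 -2.23 ± 0.21, adjusted p = 2.03e-12; difference 2.85 ± 0.26, adjusted p = 1.09e-11). Slc7a11 rose further under ICI than under GSK2033 (difference -0.53 ± 0.11, adjusted p = 5.54e-04), at 112 ± 4.46 CPM with ICI + 27HC and 32.7 ± 1.73 CPM with ICI.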

How the data were processed

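Poly(A) RNA of BMDM was made into stranded TruSeq libraries and read as single 100 nt reads on a NovaSeq 6000, per the labels' protocols. The authors deposited 1 table of estimated counts per gene for 46 libraries, and the submitters' processing notes name bcl2fastq 2.20, kallisto 0.44.0 and GRCm38. Of 24671 genes, 24279 took a symbol from GENCODE M21, and 392 without one held 0.455% of the counts. The deposited estimated counts were rounded, which moved a library total by at most 133. Genes were filtered with filterByExpr, scaled by TMM and fitted with edgeR 4.0.16 (limma 3.58.1, R 4.3.3) in 1 quasi-likelihood model over the 9 groups, with 37 residual degrees of freedom and a biological coefficient of variation of 7.55%. No covariate was used. Contrasts were the 27HC effect under GSK2033, alone and under ICI, and the differences between them; Benjamini-Hochberg adjustment ran over 13838 genes. The fit was tested on simulated counts. Total counts of 19354093 to 30921038 per library give the depth, and intervals over libraries are 95%.

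Replicate libraries differed by more than sampling noise in all 95 pairs within groups (chi-square per degree of freedom of 3.91 to 12.2). Each was counted as 1 replicate. Such scatter can be technical, so it cannot show that the libraries are independent. Genes were named by rule: the receptor genes, up to 6 members per list with the smallest p, the 12 highest and 12 lowest called genes with a mean of at least 1 CPM and no overlap, 6 per class of response with at least 5 CPM, and Abca1, Abcg1, Srebf1, Mylip, Hmgcs1 and Insig1. Some genes that the rule takes are not reported here. Unnamed models and mitochondrial genes were passed over. The members and lists were chosen with earlier results of these data known. The list members, the promoters (RefSeq) and the motifs were read with Python 3.11.15. Some rows hold identical values in every library (331 tested, 121 called), so their levels are shares. Alternatives were RLE scaling, DESeq2 1.42.0, limma voom, other filters, fewer libraries, a replicate block and each library left out.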

Additional observations from a re-analysis of the deposited data

Results flagged for a closer look

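Of 302 groups of 5 libraries looked at for the named genes, 12 held a library whose gap to the nearest other exceeded Dixon's 95% limit (3.97%), where chance flags about 1 in 20. The high values were 63.8 CPM of Srebf1, 13.1 CPM of Mvk and 36.4 CPM of Clec4a3 among GSK2033 + 27HC libraries, and 742 CPM of Plin2, 20.3 CPM of Nsdhl, 91.8 CPM of Fads1 and 1251 CPM of C3 among GSK2033 libraries. The low values were 209 CPM of Xbp1 and 351 CPM of Srxn1 among GSK2033 + 27HC libraries, and 13.9 CPM of Mid1ip1, 5371 CPM of B2m and 1512 CPM of C1qb among GSK2033 libraries. They fall in several libraries, 4 of them in GSK2033 replicate 4.

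The response to 27HC under GSK2033 differed from that to 27HC alone, by the test of the difference itself with edgeR, for 1292 genes the higher way and 1420 the lower, among them 99 of the 149 genes looked at by name. These differences, in log2 units as the fold change under GSK2033 minus that alone, are given here by gene group. Among LXR targets they were -2.19 for Abca1, -3.92 for Abcg1, -0.64 for Pltp, -1.42 for Lpl, -0.60 for Nr1h3, -1.44 for Mylip, -0.17 for Rnf145, -0.31 for Tmem135, -0.77 for Arl4c and -2.11 for Scd2. Among genes of sterol sensing and cholesterol synthesis they were 0.79 for Srebf2, 1.69 for Insig1, 1.43 for Stard4, 1.14 for Hmgcs1, 0.34 for Mvk, 0.32 for Pmvk, 1.88 for Idi1, 1.22 for Fdps, 1.66 for Fdft1, 1.82 for Sqle, 0.87 for Msmo1 and 1.01 for Sc5d. For other lipid genes they were -0.30 for Mid1ip1, 0.24 for Fads1, -0.21 for Osbpl8, -0.77 for Cd36 and 0.40 for Angptl4.

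Among interferon genes the differences were 0.49 for Irf7, 1.04 for Ifit2, 1.03 for Ifit3b, 0.36 for Oas3 and 0.39 for Rsad2. Among MHC genes they were 0.39 for H2-K1, 0.22 for H2-T23, 0.74 for H2-Q4, 0.98 for H2-Q7 and 0.28 for H2-Ab1. Cytokine genes gave -1.06 for Il1a, -0.22 for Ccl5, -0.25 for Cxcl16 and 1.63 for Lcn2. Macrophage and complement genes gave 0.13 for Adgre1, -0.59 for Fcgr1, -0.28 for Aif1, -0.65 for C1qa, -0.70 for C1qb, -0.70 for C1qc, 0.37 for C3 and -0.74 for C3ar1. In genes of the integrated stress response the values were 0.15 for Atf4, 0.29 for Trib3, 0.56 for Gdf15, 1.12 for Slc7a11, 0.42 for Pck2 and 0.21 for Slc3a2. Chaperone and unfolded protein genes gave 0.13 for Hspa5, 0.23 for Hyou1, 0.22 for Dnajb9 and -0.23 for Xbp1, NRF2 targets 0.20 for Srxn1, 0.24 for Cat, 0.29 for Prdx1 and -0.17 for Hmox1, and glycolysis and hypoxia genes 0.26 for Slc2a1, 0.22 for Pgam1, 0.24 for Eno1 and 0.29 for Ndrg1.

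For genes of growth, replication and early response the differences were -0.34 for Ccnd1, -0.74 for Igf1, -0.84 for Pcna, -0.52 for Mcm5, -0.15 for Jun, -0.91 for Zfp36 and -0.64 for Dusp4. Among the genes that rose furthest they were 1.01 for Arfgef3, 1.75 for Hid1, 0.87 for Ptgir, 0.93 for Chchd10, 1.65 for Cdsn and 1.81 for Hapln4. Among those that fell furthest they were -0.89 for Slc13a3, -0.63 for Fgl2, 1.74 for Slfn1, -0.94 for Clec4b1, 0.43 for Iigp1 and 1.38 for BC147527. The genes that stood for a class of response gave 0.85 for Txnip, -1.01 for Id2, -0.79 for Lgmn, -1.04 for Cd72, -0.40 for Efhd2, -0.89 for B4galt6, -1.11 for Rasgef1b, -1.12 for Cd180, 0.47 for Calu, -0.53 for Ehd4, -0.59 for Apobec1, -0.59 for Glrx and -0.52 for Evi2a.

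Against the response under ICI, the difference passed for 862 genes the higher way and 836 the lower. As the fold change under GSK2033 minus that under ICI, the lipid genes gave -1.75 for Abca1, -2.46 for Abcg1, -0.49 for Lpl, -0.71 for Mylip, -2.16 for Scd2, -0.70 for Arl4c and 0.46 for Insig1. The immune genes gave 0.99 for Irf7, 1.48 for Ifit2, 2.85 for Lcn2, -2.19 for Il1a, 2.21 for Slfn1, 1.36 for Iigp1, 1.04 for Ms4a4c and 1.02 for Clec4a1, and Slc7a11 and Cdsn gave -0.53 and 1.59.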

How the results depend on the processing

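Among the counts of genes, lists and classes, 304 of 310 values under other settings and all 390 with 1 library left out lay within 1.5 times the reported count. The exceptions were the genes that rose at least 2-fold, 33 when a mean of at least 1 CPM was asked for, and 5 counts at an adjusted p of 0.01: 823 genes higher in the difference from 27HC alone, 519 higher and 513 lower in the difference from ICI, 176 with a larger response under GSK2033 and 149 with the opposite sign. For 27HC under GSK2033, DESeq2 called 2368 genes higher and 2658 lower, limma voom 2385 and 2609, RLE scaling 2319 and 2633, and the fit to 10 libraries 2316 and 2454. The balance turned with no count filter (2379 higher, 2161 lower) and without mitochondrially encoded genes (2517 and 2460). With 1 of the 10 libraries left out the counts were 2143 to 2419 higher and 2250.0 to 2567 lower. Of single-gene values, 4559 kept their call, 24 gained and 36 lost one with 1 library left out, and 3240 kept, 12 gained and 20 lost one otherwise. Of these 7891 values 59 changed sign, for 11 gene results, and 0 of the 59 were past the threshold under either setting. The differences from 27HC alone of Rnf145 and Iigp1 lost their call without a count filter and that of BC147527 with limma voom; with 1 library left out, those of Rnf145, Iigp1 and BC147527 lost it in 15, 10 and 3 fits; the cause was not tested. DESeq2 gave no adjusted p for 269 genes in that difference. Whether equal replicate numbers pair the libraries is not in the labels. Deviations of equal-numbered GSK2033 + 27HC and GSK2033 libraries correlated between -0.03 and 0.10, and those of other pairs between -0.08 and 0.06. Correlations this weak over so few libraries cannot settle whether the libraries are paired. With the replicate block 2495 genes were higher and 2681 lower over 46 libraries, and 2279 and 2376 over 10. Depth limits genes near 1 CPM such as Abcg1 under GSK2033.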
